A study of Rattus norvegicus with 15 samples.

Results

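Gene expression in old rat muscle at 30 months was set against that in middle-aged muscle at 17 months, the later of the 2 age steps in a study of skeletal muscle aging. The comparison used 10 of the 15 arrays of the series, 5 labelled old and 5 labelled middle-aged, together with the 10158 of 22523 probes that were detected on at least 5 of the 15 arrays. All animals were male Fisher-344 rats, an inbred strain, singly housed on standard NIH-31 chow with free access to water. RNA came from whole vastus lateralis, a muscle of the thigh, and each rat gave 1 Illumina RatRef-12 array. The 5 young arrays, from rats of 5 months, stayed in the model, where they added to the estimate of the spread, and their levels are given where they help to place the other ages. Old and middle-aged rats differed in age only, as far as the sample titles go, and no agent or allele was named. The column names of the middle-aged arrays are written in another form than those of the old and young arrays. All of these names carry the mark AL, which they do not spell out. The labels do not state that the arrays of 1 age came from separate litters or hybridization days.

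Skeletal muscle is built of long multinucleate fibres, and between them lie satellite cells, fibroblasts, vessels, nerve endings, fat cells and immune cells. In late life it loses mass and force, a process known as sarcopenia, and mitochondrial respiration, the handling of calcium, the junction with the motor nerve and signalling through insulin and growth factors have all been studied as parts of it. The RNA of a whole muscle mixes these cells, so that for every gene below fewer cells of a type and less RNA per cell cannot be told apart.

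Levels are given as normalised log2 intensity, so that a difference of 1 is a doubling of signal. The old arrays detected 9755 to 10078 probes, and the middle-aged arrays 8869 to 9658. Before normalization the median signal was 93 to 100 on old arrays and 98 to 110 on middle-aged arrays. All 10 skeletal muscle fibre markers that were tested, of 12 listed, were detected on all 10 arrays, as the labelled tissue would have them. The summed intensity of these markers was 226996 to 248242 on old arrays and 256086 to 268650 on middle-aged arrays, so that the 2 ages did not overlap. The brightest markers weigh most in such a sum. Averaged over the markers on the log2 scale, relative to the middle-aged mean, the ages did overlap. Old arrays lay between -0.42 and 0.03 and middle-aged arrays between -0.15 and 0.08, and none of the markers differed at an adjusted p below 0.05. Old replicate 5 stood apart from the rest. It lay at 52.83 on the first principal component, where the other 14 arrays lay between -18.4 and 15.87, and it correlated with them at 0.946 to 0.968. Values without that array are therefore given beside many of the genes and groups that it moves.

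In all, 173 of 10021 genes, or 1.73%, differed between old and middle-aged muscle at an adjusted p below 0.05 (limma, Benjamini-Hochberg over all genes tested). Of these 43 (0.429%) were higher and 130 (1.30%) were lower in old muscle. Both shares are the background for the counts of called list members given below. Of the 173 genes, 7 were detected on 0 old arrays and 10 on 0 middle-aged arrays. Among the falls 12 were detected on 0 to 2 old and on 4 or 5 middle-aged arrays. Such genes met the detection filter mainly or wholly without the arrays of 1 age, so their p-values are no independent support for the differences. The changes were small, with a median log2 difference of 0.60 among the rises and -0.65 among the falls, and 26 of the 173 reached 2-fold, 4 upward and 22 downward. For 161 of the 173 the 5 old arrays lay wholly to 1 side of the 5 middle-aged arrays, as they did for 5.56% of all genes tested (2.12% upward, 3.44% downward). The 173 were called on these same arrays, so their separation is no further support. Across all genes the median difference was 0.01 and 51.6% lay above 0. At an unadjusted p below 0.05 there were 2019 genes, 957 higher and 1062 lower. Of the 173 genes, 109 carried a symbol and 64 did not. The plot of difference against p-value shows the excess of falls among the genes past the threshold.

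**Figure D1:**
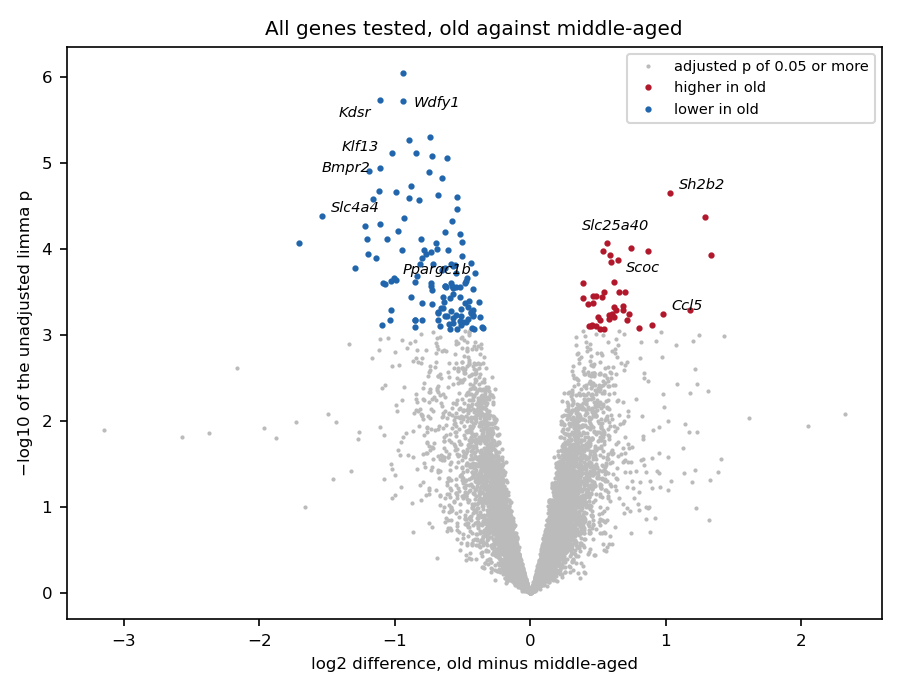
Each point is 1 of the 10021 genes tested. The x axis gives the log2 difference of old minus middle-aged and the y axis -log10 of the unadjusted limma p. The 43 genes higher in old (red) and the 130 lower in old (blue) are those past the adjusted threshold, and all points past a log2 difference of 2 in either direction are grey.

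The direction of the calls depended on how the arrays were brought to 1 scale. On the deposited Z scores 165 genes were higher and 136 lower in old muscle, so that 54.8% of calls were rises, against 24.9% in the quantile-normalised values. With each array centred on the median of all its probes the median difference of all genes moved to 0.28, and 2032 genes were then higher and 103 lower. Of the 43 rises 27 and 43 kept their call in those 2 settings, and of the 130 falls 77 and 79. Single arrays moved the count as well, to 111 without young replicate 4, to 26, 33, 96 and 56 without middle-aged replicates 1, 2, 3 and 4 in turn, and to 48, 268, 61 and 102 without old replicates 2, 3, 4 and 5 in turn. In every one of the 15 leave-outs 23 genes stayed past the threshold, 22 of them lower in old and 1 of them, Sh2b2, higher.

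Promoters of 3 genes that held in every leave-out are printed here as examples, those of the falls Kdsr and Dusp3 and of the rise Sh2b2. They were chosen with their letters in view, as windows rich in the motif described next. The windows are RefSeq promoters around the start of each gene, in the GRCr8 build, 5′ to 3′ on the strand of the gene, at chr13:23408716-23409015 (minus strand) for Kdsr, chr10:87431986-87432285 (minus strand) for Dusp3 and chr12:26065422-26065721 (plus strand) for Sh2b2. Capitals mark the letters GGGCGG, the GC box bound by factors of the Sp and Klf families, on either strand.
Kdsr: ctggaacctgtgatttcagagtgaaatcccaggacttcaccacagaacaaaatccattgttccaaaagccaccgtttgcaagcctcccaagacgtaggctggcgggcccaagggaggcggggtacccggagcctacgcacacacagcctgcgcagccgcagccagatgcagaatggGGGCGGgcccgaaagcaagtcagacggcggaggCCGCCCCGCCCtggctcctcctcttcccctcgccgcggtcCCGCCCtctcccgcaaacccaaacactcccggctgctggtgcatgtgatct
Dusp3: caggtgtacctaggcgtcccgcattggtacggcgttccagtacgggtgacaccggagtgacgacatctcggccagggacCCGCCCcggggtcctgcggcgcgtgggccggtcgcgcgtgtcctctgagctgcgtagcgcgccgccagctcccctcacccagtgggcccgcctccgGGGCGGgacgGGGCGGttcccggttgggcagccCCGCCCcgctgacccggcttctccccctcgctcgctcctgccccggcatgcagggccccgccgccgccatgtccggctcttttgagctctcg
Sh2b2: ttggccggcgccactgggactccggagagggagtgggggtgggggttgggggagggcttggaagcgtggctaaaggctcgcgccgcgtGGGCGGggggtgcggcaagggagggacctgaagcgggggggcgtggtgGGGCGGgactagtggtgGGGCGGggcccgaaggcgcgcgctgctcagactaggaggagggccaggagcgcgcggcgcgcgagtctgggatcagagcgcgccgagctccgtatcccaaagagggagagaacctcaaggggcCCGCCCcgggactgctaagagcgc
Each of the 3 windows held the box 4 times, while those of Bmpr2 and Wdfy1, which also held in every leave-out, held it 2 times and those of Efcab14 and Zc3h11a 0 times. The box was found in 62.3% of the 69 genes called lower that had a promoter in the table, in 54.2% of the 24 called higher, in 61.7% of the 6134 genes tested and in 34.9% of all 27457 promoters. The letters CCAAT stood in 24.6% of promoters of genes called lower, 54.2% of genes called higher and 38.4% of genes tested, a description for which no test was run.

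Kdsr, the reductase that makes dihydrosphingosine early in ceramide synthesis, had among the lowest p-values of all genes. It read 7.14, 6.95, 7.25, 7.17 and 6.79 on the old arrays, against 8.37, 7.94, 8.03, 8.45 and 8.04 on the middle-aged. Every old array lay well below the lowest middle-aged array. The fall was 1.11 (SE 0.15, 2.15-fold, n = 5 per age, adjusted p = 0.00638), and the largest adjusted p over the leave-outs was 0.0348. The young mean was 8.40 ± 0.32 (SD), near the middle-aged mean of 8.17 ± 0.23. Of the 18 sphingolipid and ceramide genes tested, Kdsr was the 1 that fell and none rose, against 1.30% and 0.429% of all genes. The median of the list was 0.00. Cerk, which phosphorylates ceramide, did not overlap between ages but missed the threshold (-0.49, adjusted p = 0.0883).

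Bmpr2, the type II receptor for bone morphogenetic proteins, fell by 1.11 (SE 0.18, adjusted p = 0.0108). It read 8.24, 8.24, 8.23, 8.26 and 7.68 on the old arrays, against 9.58, 9.44, 9.34, 9.10 and 8.75 on the middle-aged. Old replicates 1 to 4 differed by 0.03 or less, and the fall was 0.99 without old replicate 5 (adjusted p = 0.0142). It was the 1 gene to fall of 26 tested genes of BMP, TGF-beta and myostatin signalling. Of these 0 rose (median -0.08), where 1.30% of all genes fell and 0.429% rose. Id1, a transcriptional target of BMP receptors, differed by -0.66 (adjusted p = 0.112), and passed without old replicate 5 (-0.88, adjusted p = 0.0136). That array read 8.32 for Id1 and the other old arrays 6.92 to 7.35. Ltbp1, which tethers latent TGF-beta to matrix, had the largest positive difference of the list at 0.96 and missed the threshold (adjusted p = 0.052).

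Dusp3, a phosphatase that acts on the MAP kinases ERK and JNK, fell by 1.12 (SE 0.19, adjusted p = 0.0125). It read 9.29, 9.31, 9.05, 9.33 and 8.48 on the old arrays, against 10.55, 10.44, 10.25, 10.09 and 9.72 on the middle-aged. Again no old array reached the lowest middle-aged array. It was the only 1 of 25 MAP kinase and phosphatase genes to pass, where 1.73% of all genes did. Map2k6, the kinase upstream of p38, differed by -0.99 with groups that did not overlap (adjusted p = 0.114), and old replicate 5 at 7.64 lay far below the other old arrays, at 9.36 to 10.02. Without that array its difference was -0.57 (adjusted p = 0.0499).

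**Figure D2:**
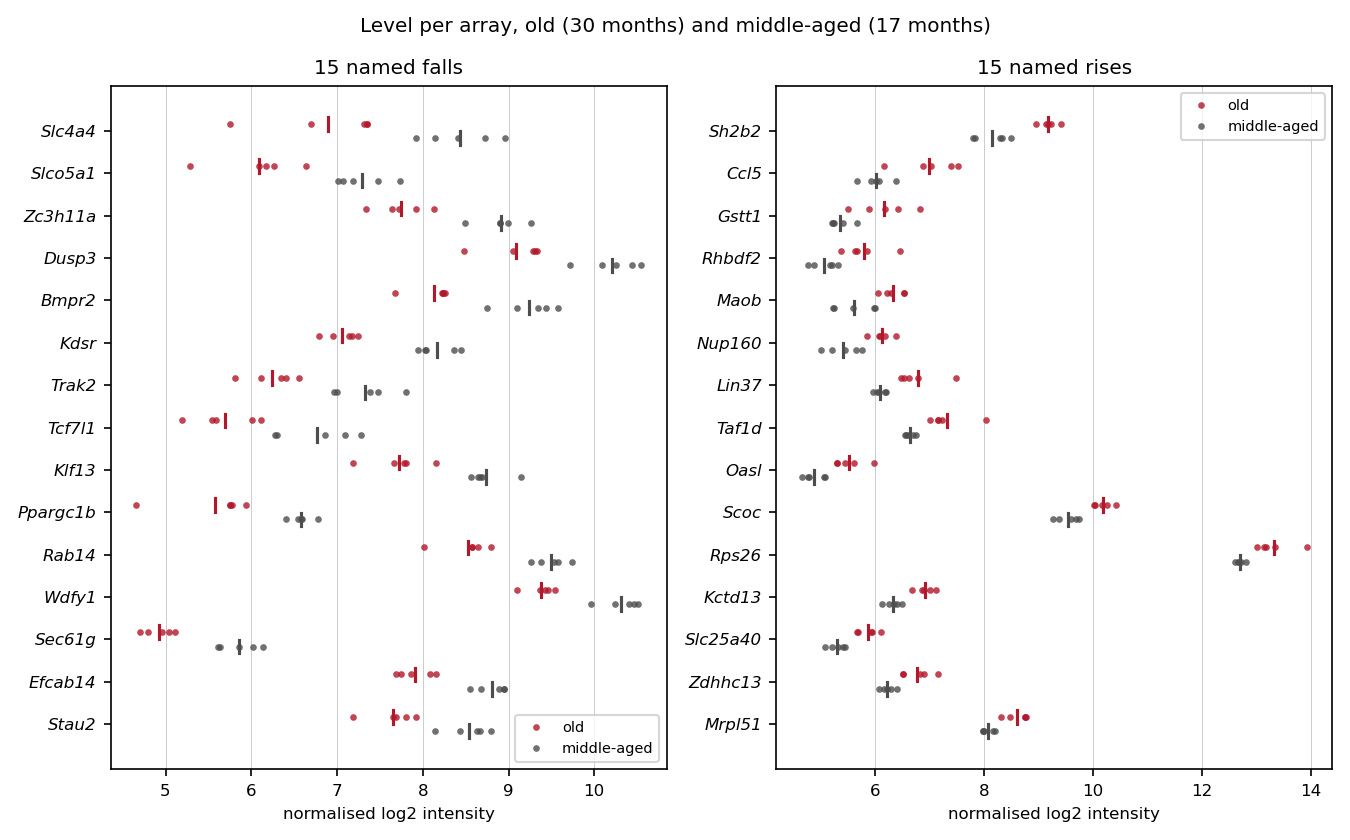
Normalised log2 intensity (x axis) of the 15 genes with the largest named falls (left) and the 15 with the largest named rises (right). Points are single arrays, old in red above middle-aged in grey for each gene, and bars are means over 5 arrays. The ages are separate in 28 of the 30 genes, and overlap for Ccl5 and Gstt1. Over all genes tested they are separate in 5.56%. The 30 genes were chosen by their difference between these same arrays, so their separation is no further support.

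Prkaa2, Gsk3b, Camk2b and Camk2g, kinases that respond to energy state, insulin or calcium, were lower in old muscle. Prkaa2, a catalytic subunit of AMP-activated kinase, read 6.66, 6.21, 6.53, 6.63 and 5.87 on the old arrays, against 7.18, 7.34, 7.20, 7.06 and 7.03 on the middle-aged, a fall of 0.78 (SE 0.15, adjusted p = 0.023). Gsk3b, a kinase that restrains glycogen synthesis, fell by 0.77 (SE 0.15, adjusted p = 0.0235), with means of 8.47 ± 0.16 in old and 9.23 ± 0.30 in middle-aged muscle. Camk2b and Camk2g, subunits of calcium- and calmodulin-dependent kinase II, fell by 0.74 and 0.63 (SE 0.16 and 0.14, adjusted p = 0.0315 and 0.0317). None of the 4 overlapped between ages. For Camk2b old replicate 5 read 9.80 and the other old arrays 10.45 to 10.70, and without it the fall was 0.59 (adjusted p = 0.0394). Camk2g lost its call without the same array (0.53, adjusted p = 0.0504). Among the 24 calcium handling genes tested these were the 2 that fell and none rose, against 1.30% and 0.429% of all genes. Of the 24 genes 20 had a difference below 0 (median -0.17).

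The largest named fall was that of a membrane transporter. Slc4a4, the electrogenic sodium bicarbonate cotransporter, read 7.35, 6.70, 7.35, 7.32 and 5.75 on the old arrays, against 8.96, 8.72, 7.92, 8.41 and 8.14 on the middle-aged. It fell by 1.53 (SE 0.28, 2.90-fold, adjusted p = 0.0169), or by 1.24 without old replicate 5, and the young mean of 8.45 was close to the middle-aged mean of 8.43. Slco5a1, an organic anion transporter by its sequence family, was lower in old muscle (-1.20, SE 0.23, adjusted p = 0.0221). Its mean level was 7.98 in young, 7.30 in middle-aged and 6.09 in old muscle. Trak2, an adaptor that ties mitochondria to motor proteins, had means of 8.08, 7.33 and 6.25 at the same 3 ages and fell by 1.08 in the later step (SE 0.23, adjusted p = 0.0315). Rab14, a small GTPase of endosomes, fell by 0.97 (adjusted p = 0.0205). Wdfy1, an endosomal protein, fell by 0.93 (SE 0.13, adjusted p = 0.00638) and held in every leave-out.

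Sec61g, a subunit of the channel that passes proteins into the endoplasmic reticulum, was detected mainly in middle age. It was found on 1 young, 5 middle-aged and 0 old arrays, and read 4.70 to 5.11 on the old arrays and 5.61 to 6.14 on the middle-aged. It was at least 1.57-fold lower in old muscle (adjusted p = 0.0169), where the bound takes the lowest detected signal of each old array in place of an undetected 1. The young mean was 5.11. Sec61g met the detection filter mainly through the middle-aged arrays, where it was high, so the p-value is no independent support for the difference.

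Klf13, Zc3h11a, Stau2 and Tcf7l1, which act on transcription or RNA, were also lower in old muscle. Klf13, a Krüppel-like factor, read 8.15, 7.78, 7.66, 7.81 and 7.19 on the old arrays, against 8.69, 8.67, 8.56, 9.15 and 8.64 on the middle-aged, and fell by 1.02 (SE 0.16, adjusted p = 0.00994). Zc3h11a, a zinc finger protein of mRNA export, fell by 1.16 (SE 0.20, adjusted p = 0.0125), and its mean was 9.45 in young, 8.91 in middle-aged and 7.75 in old muscle. It was the 1 gene to fall of 37 tested genes of RNA splicing and processing, 30 of which had a difference above 0. Stau2, an RNA-binding protein of mRNA transport, fell by 0.88 (SE 0.15, adjusted p = 0.0125). Tcf7l1, a transcription factor at the end of Wnt signalling, fell by 1.07 (SE 0.23, adjusted p = 0.0315). Klf13, Zc3h11a and Stau2 held in every leave-out, while Tcf7l1 held in 9 of 15. Efcab14, named for its EF-hand domain, fell by 0.89 (SE 0.13, adjusted p = 0.00994) and also held in all 15.

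Notch1, the receptor that keeps satellite cells quiescent, fell by 0.52 (SE 0.12, adjusted p = 0.0459), with levels of 5.94 to 6.25 on the old arrays and 6.34 to 6.97 on the middle-aged. The ages stood apart by less than 0.10. The call held in 3 of 15 leave-outs. It was the 1 called gene of 9 satellite cell markers, where 1.73% of all genes were called. The median difference of the markers was 0.04, or -0.12 without old replicate 5. The markers Hey1 and Heyl, which are targets of Notch, differed by 0.33 and 0.07 and did not pass (adjusted p = 0.155 and 0.737).

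Rises were fewer than falls, and 1 of the 43 held in every leave-out. Sh2b2, an adaptor protein that binds the activated insulin receptor, read 9.17, 8.96, 9.23, 9.42 and 9.14 on the old arrays, against 8.29, 8.49, 7.83, 7.80 and 8.33 on the middle-aged. Every old array was above every middle-aged array. The rise was 1.04 (SE 0.18, 2.05-fold, adjusted p = 0.0125) and was the same without old replicate 5. The young mean was 8.40 ± 0.37 (SD), with 1 young array at 8.98. Of the 24 tested genes of IGF-1, insulin and mTOR signalling Sh2b2 was the 1 that rose and Gsk3b the 1 that fell. Irs1 and Pdpk1, which act just below the insulin receptor, differed by -0.68 and -0.42 with no overlap between ages and missed the threshold (adjusted p = 0.194 and 0.0952). Old replicate 5 read 5.16 for Irs1 and the other old arrays 6.40 to 6.70, and without it the difference was -0.40.

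Ccl5, a chemokine that attracts T cells and monocytes, read 7.53, 6.89, 7.39, 7.03 and 6.17 on the old arrays, against 6.08, 5.93, 5.67, 6.39 and 6.03 on the middle-aged. The ages overlapped through old replicate 5 alone. The rise was 0.98 (SE 0.23, adjusted p = 0.0442), or 1.18 without that array (adjusted p = 0.0142), and the call was lost in 13 of the 15 leave-outs. The young mean was 5.52, and Ccl5 was detected on 3 of the 5 young arrays. It was the 1 gene to rise of 33 tested inflammatory and NF-kB genes, against 0.429% of all genes. Of the 33 genes 25 had a difference above 0, and their median was 0.18. Of 20 listed lymphocyte and natural killer cell markers Ccl5 was 1 of the 3 tested, and 7 were not detected on any of the 10 arrays. Over the 17 markers on the array, detected or not and with Ccl5 among them, the summed intensity was 529 to 815 on old arrays. It was 503 to 788 on middle-aged arrays. The part of such cells in the rise of Ccl5 was not tested. Oasl, an interferon-induced gene, was detected on 5 old and 0 middle-aged arrays and was at least 1.16-fold higher in old muscle (adjusted p = 0.0341). It was detected on 1 young array and so met the detection filter mainly through the old arrays, where it was high, and the p-value is no independent support for the difference.

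In several rises the old level lay near the young one. Scoc, a coiled-coil protein of the Golgi with a role in autophagy, had means of 10.07 in young, 9.53 in middle-aged and 10.18 in old muscle and rose by 0.65 in the later step (SE 0.13, adjusted p = 0.0245). Slc25a40, a carrier of the inner mitochondrial membrane, had means of 5.78, 5.30 and 5.87 at the same ages and rose by 0.57 (SE 0.11, adjusted p = 0.0221). Nup160, a scaffold protein of the nuclear pore, had means of 5.92, 5.42 and 6.12 and rose by 0.70 (SE 0.15, adjusted p = 0.0341). For these 3 genes the middle-aged arrays were the low ones. Between young and middle-aged muscle none of the 3 passed the threshold (adjusted p = 0.0807, 0.073 and 0.141 for Scoc, Slc25a40 and Nup160), and the middle-aged arrays enter both comparisons.

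The other named rises had varied roles. Gstt1, a glutathione transferase, rose by 0.80 (SE 0.20, adjusted p = 0.0499) with overlapping ages, and Maob, the monoamine oxidase of the outer mitochondrial membrane, by 0.72 (SE 0.17, adjusted p = 0.0455). Kctd13, an adaptor of cullin ubiquitin ligases, read 6.69 to 7.13 on the old arrays and 6.14 to 6.49 on the middle-aged, a rise of 0.59 (SE 0.12, adjusted p = 0.0235). Taf1d, a factor of RNA polymerase I, rose by 0.68 and Lin37, of the DREAM complex that represses cell cycle genes, by 0.69 (adjusted p = 0.0426 and 0.0413). Old replicate 5 was the highest array for both, and without it the rises were 0.50 and 0.51 (adjusted p = 0.0263 and 0.027). Rhbdf2, which steers the protease that sheds TNF, rose by 0.73, Zdhhc13, a palmitoyltransferase, by 0.55 and Mrpl51, a protein of the mitochondrial ribosome, by 0.54. Their adjusted p-values were 0.0442, 0.0499 and 0.0341, and those of Rhbdf2, Zdhhc13, Mrpl51, Maob and Gstt1 were at 0.0589 to 0.0847 without old replicate 5. Rhbdf2 was detected on 5 old, 1 middle-aged and 1 young array, and Gstt1 on 5, 2 and 2. Both met the detection filter mainly through the old arrays, where they were high. Their p-values are thus no independent support for the differences.

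Most cytosolic ribosomal protein genes had differences above 0. Of 56 tested genes 1 rose, Rps26, and 0 fell, but 51 had a difference above 0 and the median was 0.19, against 0.01 over all genes. For 7 of the 56 every old array was above every middle-aged array, as for 2.12% of all genes. Rps26 read 13.13, 13.33, 13.18, 13.01 and 13.92 on the old arrays, against 12.72, 12.66, 12.60, 12.68 and 12.81 on the middle-aged (0.62, SE 0.15, adjusted p = 0.0447). Its probe may share signal with near-identical copies, so that its identity is uncertain. Rps25 and Rps12 differed by 0.48 and 0.54 and just missed the threshold (adjusted p = 0.0539 and 0.054). The direction of the list was open to scaling, since its median was -0.07 on the deposited Z scores, and without old replicate 5 it was 0.13.

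No tested member of the list of nuclear oxidative phosphorylation genes passed the threshold. The list leaves out genes encoded in mitochondria, and 58 of its 81 genes were tested. Of these 58 genes 0 rose and 0 fell, 54 had a difference below 0 and the median was -0.25. At an unadjusted limma p below 0.05 there were 21 of them in either direction, where 2019 of all 10021 genes were. Ndufv3, with a difference of 0.34, was among the 21. For 4 of the 58 every old array lay below every middle-aged array, against 3.44% of all genes. The medians were -0.31 for complex I, -0.29 for complexes II and III, -0.24 for complex IV and -0.21 for complex V. Averaged over the 58 genes and set against the middle-aged mean, old replicates 1 to 4 lay at -0.16, -0.18, 0.00 and -0.09 and old replicate 5 at -0.83, while the middle-aged arrays lay between -0.01 and 0.02. Much of the shift thus came from 1 array, and without it the median was -0.13. With arrays centred on the median of all probes it was 0.10, where that of all genes was 0.28. Sdhd, a membrane anchor of complex II, read 13.14, 13.21, 13.21, 13.21 and 12.30 on the old arrays, against 13.39, 13.53, 13.40, 13.37 and 13.74 on the middle-aged, without overlap (-0.47, adjusted p = 0.118). The tricarboxylic acid cycle had a median of -0.20, or -0.07 without old replicate 5, and 0 of its 14 tested genes passed.

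**Figure D3:**
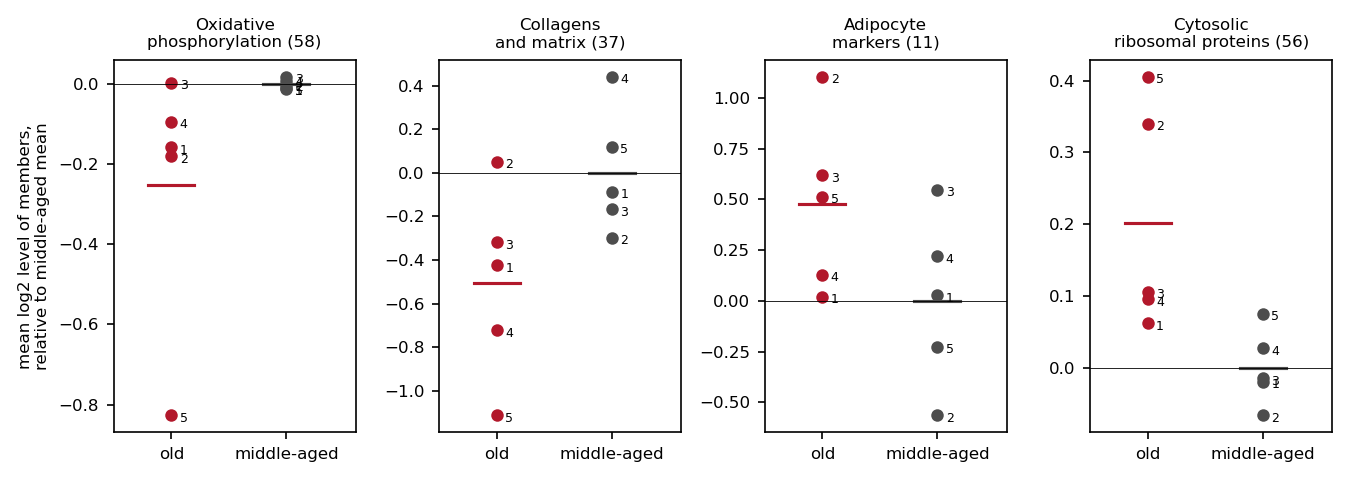
Mean log2 level of the tested members of 4 gene lists on each array, relative to the mean of the 5 middle-aged arrays (y axis, log2), for old (red, left) and middle-aged (grey, right) muscle. Bars are group means, small digits are replicate numbers and the number of genes is in each title. Old replicate 5 lay at -0.83 for oxidative phosphorylation and -1.11 for collagens and matrix, below the other old arrays in both.

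Regulators of mitochondrial content were counted as a list of their own. Ppargc1b, a coactivator of oxidative genes, read 5.94, 5.75, 5.75, 5.77 and 4.66 on the old arrays, against 6.78, 6.59, 6.40, 6.58 and 6.55 on the middle-aged. It fell 2.01-fold (SE 0.21 on the log2 scale, adjusted p = 0.0314) and was detected on 4 of the 5 old arrays. Without old replicate 5, the lowest array, the log2 fall was 0.77 (adjusted p = 0.0258). With Prkaa2 it made 2 of 12 tested genes of mitochondrial biogenesis lower and 0 higher, against 1.30% and 0.429% of all genes. Ppargc1a, its better known relative, differed by -0.52 (adjusted p = 0.327), and Gabpa, a subunit of nuclear respiratory factor GABP, by 0.60 without overlap (adjusted p = 0.127). Without old replicate 5 these differences were -0.21 and 0.36. In fatty acid oxidation 1 of 25 tested genes fell and 0 rose, with a median of -0.18 that was -0.17 without old replicate 5. The fall was that of Etfb, a subunit of the electron transfer flavoprotein, by 0.62 (SE 0.14, adjusted p = 0.0447), a call that held in 2 of 15 leave-outs.

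Of 18 tested genes that the study also followed by other means, Gsk3b passed and 17 did not. The study reports those assays for mice, rhesus monkeys and humans, not for rats. Many of them read protein, phosphorylated protein or enzyme activity, so the RNA values here are not their rat counterparts. For rats the study did measure respiratory chain complexes as protein on native gels, and it reported no change in their content with age. Its gene-set analysis of the arrays reported the electron transport chain and oxidative phosphorylation as lower with age in every species, rats included. Mfn2, a mitochondrial fusion protein, differed by -0.35 (SE 0.12, adjusted p = 0.146) and Mfn1, its relative, by 0.05 (SE 0.16, adjusted p = 0.872). The fission genes Dnm1l and Fis1 differed by -0.20 and 0.04 (SE 0.16 and 0.12), and the mitophagy genes Pink1 and Bnip3 by 0.20 and 0.17 (SE 0.16 and 0.20). Bnip3 without old replicate 5 differed by -0.10, so that its sign rested on that array. Nfkb1, Rela and Il1b, of the inflammatory branch, differed by 0.16, -0.01 and -0.01 (SE 0.15, 0.12 and 0.16), and Akt1 by 0.05 (SE 0.16). The citrate synthase gene Cs differed by -0.01 (SE 0.16, adjusted p = 0.975).

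Some of the largest differences belonged to genes that scattered among old rats. Fmod, a proteoglycan of collagen fibrils, read 10.42, 8.07, 6.54, 4.84 and 9.14 on the old arrays, against 9.55, 9.40, 10.23, 11.33 and 11.34 on the middle-aged, a difference of -2.57 (adjusted p = 0.155). Col1a1, a chain of type I collagen, read 6.62, 7.96, 6.78, 6.46 and 5.05 on the old arrays, against 7.99, 7.66, 8.06, 8.94 and 8.87 on the middle-aged (-1.73, adjusted p = 0.13). Only old replicate 2 reached the middle-aged range of Col1a1. Of 37 tested collagen and matrix genes 0 passed, 31 had a difference below 0 and the median was -0.43, or -0.30 without old replicate 5. The 9 fibroblast markers tested had a median of -0.61, or -0.30 without old replicate 5. Over the 11 on the array the summed intensity was 9188 to 24499 on old arrays and 17766 to 35028 on middle-aged arrays. The markers share Col1a1, Col3a1, Dcn and Lum with the matrix list. The part of fibroblast content in these values was not tested.

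Mt1, Cdkn1a and Chrna1 showed similar scatter in the other direction. Mt1, a metallothionein, read 7.56, 11.38, 8.15, 9.74 and 13.05 on the old arrays, against 7.29, 7.18, 7.02, 7.90 and 8.87 on the middle-aged (2.33, adjusted p = 0.123, or 1.55 without old replicate 5). Cdkn1a, the cell cycle inhibitor p21 that also rises when muscle loses its nerve, differed by 1.23 (adjusted p = 0.147). It read 5.19, 8.12, 5.86, 6.84 and 7.06 on the old arrays, against 4.88, 5.32, 4.86, 5.09 and 6.75 on the middle-aged, and Chrna1, a subunit of the acetylcholine receptor, was highest on old replicates 2 and 4, at 9.89 and 8.73. The remaining old arrays of Chrna1 read 4.80 to 6.08, within the middle-aged range of 4.74 to 8.12. Of 20 tested genes of nerve supply and the neuromuscular junction 0 passed and the median was 0.28, or 0.18 without old replicate 2. Hdac4, a histone deacetylase that responds to loss of nerve supply, differed by -0.45 and missed the threshold (adjusted p = 0.0522). Gstm2, a glutathione transferase, did not overlap between ages and differed by 1.18 (adjusted p = 0.103), or by 0.71 without old replicate 5 (adjusted p = 0.0432).

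No tested gene of the fast-fibre and slow-fibre sarcomere lists passed the threshold. Of 12 fast-fibre sarcomere genes 0 passed, and Tnnt3, fast troponin T, came nearest. It read 14.47, 14.07, 13.86, 13.98 and 12.90 on the old arrays, against 15.03, 14.83, 15.08, 15.11 and 14.80 on the middle-aged, a difference of -1.11 without overlap (adjusted p = 0.0637). Ckm, muscle creatine kinase, differed by -0.32, again without overlap (adjusted p = 0.146). The 7 slow-fibre genes had no call and scattered mainly among middle-aged rats, whose list means ran between -0.93 and 1.32. The 30 atrophy and autophagy genes and the 30 proteasome genes had medians of 0.14 and 0.17, or 0.03 and 0.02 without old replicate 5, and 0 of each passed. The other lists held no call either. Their medians were -0.10 for glycolysis and glycogen (22 genes), 0.01 for antioxidant defence (27 genes), 0.06 for mitochondrial dynamics and mitophagy (14 genes), -0.11 for antigen presentation (20 genes), 0.00 for heat shock and chaperones (24 genes), -0.18 for the circadian clock (11 genes) and 0.04 for Schwann cell and nerve markers (4 genes). Without old replicate 5 the signs of some turned, with medians of 0.04 for glycolysis and glycogen, 0.07 for antigen presentation and -0.02 for antioxidant defence and for heat shock and chaperones.

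Markers of cells other than fibres were compared because whole muscle was sampled. All 15 macrophage markers had a difference above 0, with a median of 0.29, and 0 passed. The median was 0.09 without old replicate 2 and 0.44 without old replicate 5. Over the 16 macrophage markers on the array the summed intensity was 2922 to 8135 on old arrays and 2351 to 5679 on middle-aged arrays. The ages thus overlapped widely. Adipocyte markers had a median of 0.51 over 11 genes, 0 of which passed. The 13 on the array had a summed intensity of 10748 to 25631 on old and 7953 to 17376 on middle-aged arrays. Adiponectin, encoded by Adipoq, differed by 0.90 (adjusted p = 0.27). Endothelial markers (11 genes) and smooth muscle and pericyte markers (6 genes) each had a median of -0.13 and 0 calls, and 5 erythroid markers a median of 0.49, or 0.26 without old replicate 5. For granulocytes and mast cells 10 of 19 listed markers were not detected on any of the 10 arrays. The part of these cells in the falls and rises above was not tested.

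**Figure D4:**
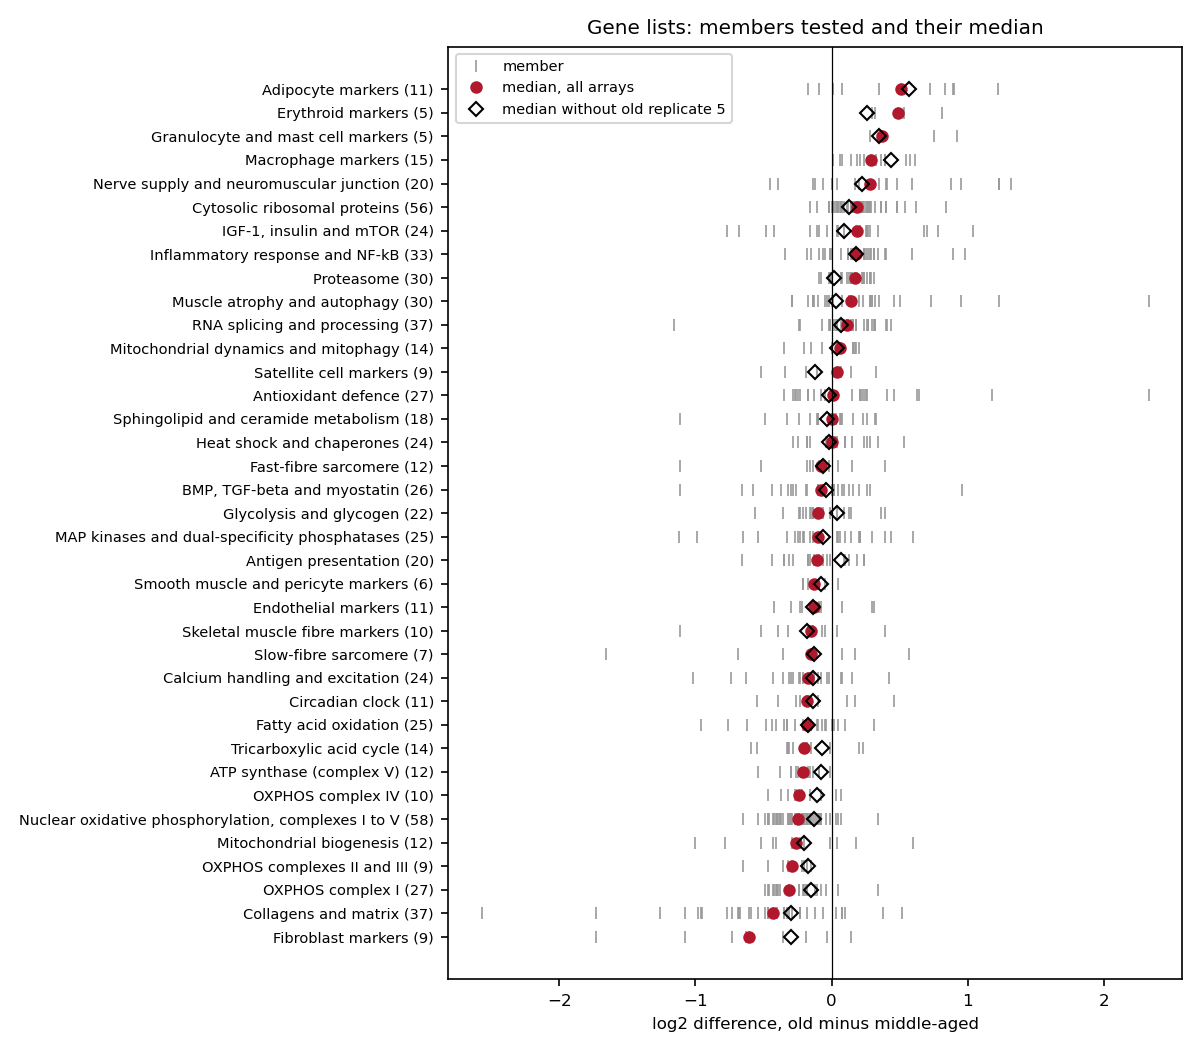
Log2 difference of old minus middle-aged (x axis) for the tested members of each gene list with 5 or more of them (grey ticks, number in brackets), with the median over all arrays (red) and without old replicate 5 (open diamonds). Over all arrays fibroblast markers (-0.61) and adipocyte markers (0.51) had the outermost medians, which were -0.30 and 0.57 without old replicate 5, and the medians of all respiratory chain complexes moved toward 0 without old replicate 5.

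Many of the named calls depended on single arrays. Of the 36 named genes past the threshold, 9 stayed past it in each of the 15 leave-outs, namely Kdsr, Bmpr2, Dusp3, Klf13, Wdfy1, Zc3h11a, Efcab14, Stau2 and Sh2b2. Without young replicates 1 to 5 in turn, which enter through the normalization, the filter and the estimate of spread, 8, 8, 2, 9 and 10 of the 36 lost their call. Without middle-aged replicates 1 to 5 in turn 27, 22, 13, 18 and 11 did, and without old replicates 1 to 5 in turn 9, 19, 3, 19 and 11 did. The 11 lost without old replicate 5 were the falls of Trak2, Tcf7l1, Camk2g, Etfb and Notch1 and the rises of Gstt1, Rhbdf2, Maob, Nup160, Zdhhc13 and Mrpl51, at adjusted p-values of 0.0504 to 0.0847. No named gene past the threshold changed direction in any setting run.

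**Figure D5:**
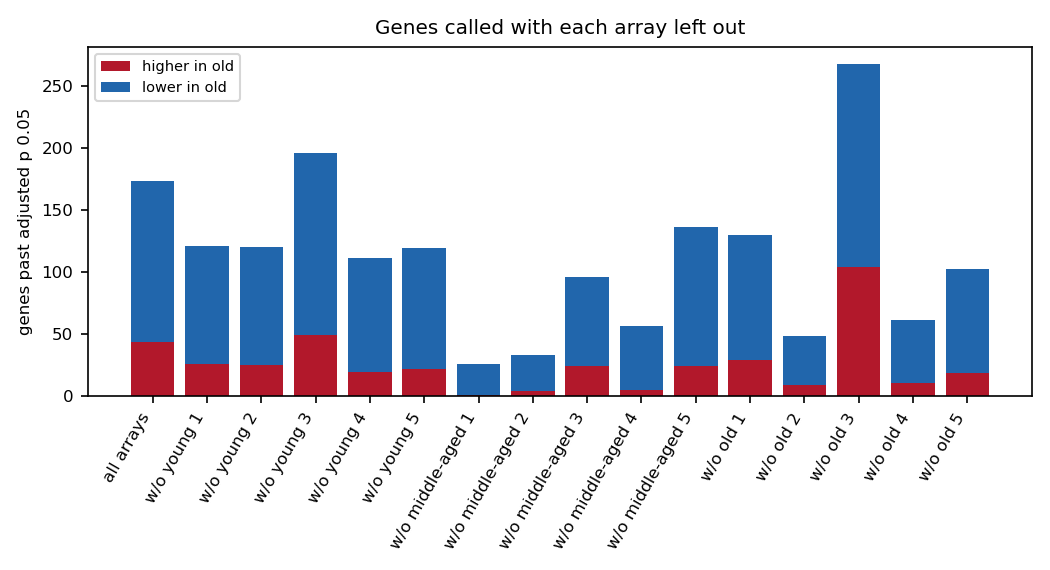
Number of genes past an adjusted p of 0.05 (y axis) with all 15 arrays and with each array left out in turn (x axis), split into higher in old (red) and lower in old (blue). The count was lowest without middle-aged replicate 1, at 26, and highest without old replicate 3, at 268, against 173 with all arrays.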

How the data were processed

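Arrays of 15 rats were used, 5 per age. The authors deposited raw signal intensity per probe with a detection p-value for 22523 probes, and a matrix of Z scores, which are log values scaled within each array and were used as an alternative only. The submitters' processing notes name GenomeStudio 2011.1. Values of middle-aged replicate 4 had decimals, and those of the other 14 arrays were whole. The BeadChip of each array is not given in the sources used here, so its effect was not tested.

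Intensities were background-corrected by normexp from the detection p-values (offset 16), taken to log2 and quantile-normalised (limma 3.58.1, R 4.3.3). A probe was retained when 5 or more arrays detected it (p below 0.05), and the brightest on average was used per symbol. This left 10021 features, called genes here, 7300 of them named through the platform annotation, with symbols updated by gene identifier. Of all 22523 probes 13793 had 1 symbol and 8730 none. A mean per age was fitted over all 15 arrays (lmFit, eBayes), without covariates, and two-sided p-values were adjusted by Benjamini-Hochberg. Each p-value sets the difference of age means against the spread between arrays within an age, pooled over young, middle-aged and old. The number of arrays limits the precision. For a gene detected on no array of 1 age the fold is a bound. The test was checked on simulated data with independent noise and no outlying array, a simpler setting than that of these arrays.

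Named genes were the 15 largest named rises and 15 largest named falls past the threshold, the list members past it and the genes the study followed by other assays. Other genes named are extremes of their lists, chosen after their values were seen. The members and lists were chosen with earlier results of these data known. Promoters are from RefSeq (GRCr8). Alternatives were other scalings, filters, background settings and models, and leaving out each array.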

Additional observations from a re-analysis of the deposited data

Results flagged for a closer look

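In 10 gene and age combinations of the named genes, 1 array had a gap to the nearest other that, as a share of the range of the 5, was above Dixon's critical value at 95%. In all 106 combinations were looked at, and chance alone flags about 1 in 20. In 8 of the 10 the array was old replicate 5. Among falls it was the lowest old array for Bmpr2 (7.68, the others 8.23 to 8.26), Ppargc1b (4.66, the others 5.75 to 5.94), Rab14 (8.02, the others 8.58 to 8.79) and Camk2b (9.80, the others 10.45 to 10.70). It was also lowest for Sdhd (12.30, the others 13.14 to 13.21). It was the highest old array for Taf1d (8.04, the others 7.01 to 7.24), Bnip3 (14.87, the others 13.44 to 13.59) and Rela (8.00, the others 7.34 to 7.46). The other flags were old replicate 4 for Dnm1l (8.08, the others 7.63 to 7.75) and middle-aged replicate 4 for Klf13 (9.15, the others 8.56 to 8.69). Over all 10021 genes old replicate 5 stood alone by the same measure as the highest old array in 334 and as the lowest in 296.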

How the results depend on the processing

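The count of 173 genes (43 higher, 130 lower in old) moved with the scaling of the arrays. It was 301 (165 higher) on the Z scores, 2135 (2032 higher) with arrays centred on the median of all probes and 323 (270 lower) with centring on the genes tested (chosen with the results in view). It was 114 (84 lower) without background correction, 60 (11 higher, 49 lower) with the 10 arrays alone in the fit and 317 (101 higher, 216 lower) with array weights, which gave old replicate 5 a weight of 0.218. A fold of at least 2 left 26 (4 higher, 22 lower), and the thresholds of the study's methods on the Z scores gave 1475 (941 higher, 534 lower). Leaving out 1 array gave 26 to 268 genes, 1 to 104 higher and 25 to 164 lower, and leaving out old replicates 2 and 5 together (chosen with the results in view) gave 31 (5 higher, 26 lower). Replicate numbers are shared by the ages but nothing ties the rats, whose own-number correlations ran from -0.309 to 0.122, and with a replicate block the count was 133 (32 higher, 101 lower). Of 36 named genes past the threshold 29 kept the call on the Z scores, 33 with median centring, 27 with the block and 11 of 35 without old replicates 2 and 5. The cause of these moves was not tested.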

Other observations

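Further named genes past the threshold, chosen here after their values were seen, are given here by their known roles. Among chromatin regulators Ash1l, a histone methyltransferase, differed by -0.73 (adjusted p = 0.0233), and the histone demethylase genes Kdm6b and Kdm8 by -0.72 and -0.42 (adjusted p = 0.0255 and 0.0426). Slc38a3 and Slc38a2, sodium-coupled transporters of neutral amino acids, differed by -0.63 and -0.48 (adjusted p = 0.0317 and 0.0315). Esrrg, an orphan nuclear receptor of oxidative muscle, differed by -0.55 (adjusted p = 0.0447). Rises included Gmnn and Gins1, which act in the licensing and start of DNA replication (0.48 and 0.39, adjusted p = 0.0363 and 0.0315), and Tnfsf13b, the B-cell survival factor BAFF (0.53, adjusted p = 0.0363).

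The median length from start to end of the gene was 35.4 kb for the 82 named genes called lower in old muscle (quartiles 11.9 and 87.3 kb), 19.4 kb for the 27 called higher and 21 kb for all 7291 named genes tested that had a length (quartiles 9.01 and 48.1 kb). With the tested genes cut into 4 equal bins by length, from shortest to longest, 0.823%, 0.878%, 0.933% and 1.87% of tested genes were lower in old muscle and 0.329%, 0.439%, 0.549% and 0.165% were higher. The median difference was between -0.01 and 0.03 in every bin. This is a description, and no test was run.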
